A study of Mus musculus with 6 samples.

Results

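Shq1 and 9 further genes for proteins of small nucleolar ribonucleoproteins (snoRNPs) were followed in newly made RNA after degradation of ASH2L. The 10 genes were the rows with these symbols among 55401 rows of each deposited table, of which 23783 had a mean above 0, and all 10 had one and passed the minimum mean of 10 for testing. They comprised the box H/ACA assembly factors Shq1 and Naf1, the H/ACA core protein genes Dkc1, Nop10, Nhp2 and Gar1, and the box C/D core protein genes Fbl, Nop56, Nop58 and Snu13. Shq1 had been chosen by its increase at both times in these same data, so its differences are given as a description, with no test. The other 9 genes were taken for their place in the same particles, with earlier results of these data known.

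The cells were iMEF cells, immortalised mouse embryo fibroblasts. Cre-ER, a recombinase switched on by a drug, had deleted exon 4 of both floxed endogenous Ash2l alleles, individual clones had been picked, and growth rested on FKBP-HA2-ASH2L, a human ASH2L fused to the F36V version of FKBP12 and brought in by a lentivirus. All groups, the untreated cells included, carried the deletion and the fusion protein. dTAG-13 links the fusion protein to the ubiquitin ligase component CRBN, which leads to its degradation. RNA labelled with an ethynyl nucleoside was captured in 3 groups of 2 libraries: untreated cells, and cells labelled around 4 h and 8 h after addition of dTAG-13. Per the paper, treated cells were given the label for 2 h around each of these times. The labels do not say whether the 2 libraries of a group came from separate cultures or which clone was used, so a p-value here measures the spread between these libraries, which may be technical.

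snoRNPs are small RNA-protein particles that modify other RNAs. H/ACA particles turn uridines of ribosomal and spliceosomal RNA into pseudouridine, and the same core proteins sit on telomerase RNA. C/D particles methylate riboses, and the U3 particle of this class takes part in cutting the ribosomal RNA precursor. H/ACA particles are built stepwise: Shq1 holds dyskerin, the Dkc1 product, before RNA is bound, Naf1 comes in with the early particle, and Gar1 later takes the place of Naf1.

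Library values had to be recovered, since each table gives for a gene 1 mean over its 4 libraries. Whole numbers for each library were found whose scaled mean gives the deposited mean, with a single solution for 23650 of the 23783 genes. The libraries of a group are named a and b, and these letters are not replicate numbers. The recovered numbers summed to 10589964 and 7513066 in untreated cells, 12358037 and 17923612 after 4 h, and 25193949 and 17698165 after 8 h, leaving out 133 abundant genes that had more than 1 solution. They are not read totals, because in 4 libraries some whole numbers from 1 to 200 never occurred (only 128 of them did in library b of 4 h), as in values scaled before rounding. A normalised count below is a recovered number divided by the size factor of its library, which puts the typical gene at the same level in all libraries.

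The label of the cells was checked against marker genes. The fibroblast genes Col1a1 and Col1a2 stood at 7900.2 to 9384 and 6836 to 8193 normalised counts over the 6 libraries. Over 7 of 11 fibroblast markers with library values, the sum was 27193 to 28129.7 at 4 h and 26023 to 28359 at 8 h, against 25357 to 27218 in untreated cells. The leukocyte gene Cd3e and the epithelial gene Krt14 were listed at 0, as was Taf9, a general transcription factor gene, so a 0 here does not show that a gene is silent. Of 4 endothelial genes, Pecam1 (5786 to 7064) and Cdh5 (2771 to 3225) were abundant. The sum of the 4 was 9733 to 10516 at 4 h and 9879 to 10359.7 at 8 h, against 8978 to 9557 in untreated cells. Kdr and Tek did not rise at 4 h. Kdr had 105 and 73.1 normalised counts then, against 209 and 183 in untreated libraries, and Tek 272 and 188, against 340 and 192. The sum of 4 of 5 epithelial markers overlapped between the groups, at 1013 to 1206, 1034 to 1159 and 1071 to 1208 at 4 h, at 8 h and in untreated cells. The summed level of 4 leukocyte markers was 105 to 134 at 4 h and 123 to 166 at 8 h, against 221 to 265 in untreated cells. At 8 h its members went opposite ways: Adgre1 had 22.6 and 14.1 normalised counts, against 77.5 and 166 in untreated libraries, and Cd68 33.1 and 39.3, against 133 and 65.3. Ptprc had 45.8 and 35.3 at 8 h, against 0 and 33.6 in untreated libraries, and Itgam 21.5 and 77.0, against 10.5 and 0. The leukocyte and endothelial sums thus lay apart from those of untreated cells, and no marker in the fit passed an adjusted p of 0.05 (limma). For single genes such separation was common: 16.4% of all genes lay above and 16.1% below the untreated pair at 4 h. At 8 h these shares were 17.4% and 16.6%. The part of these markers in the differences below was not tested.

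Promoter sequences were taken from RefSeq on GRCm38.p6, the assembly behind mm10, and 8 of the 10 genes had an entry. Naf1 and Fbl had none. The 250 bases before the transcription start are shown for Shq1, the gene with the large difference, and for Gar1 and Snu13, which stood among the highest and lowest of the others at 8 h. The Shq1 window is chr6:100671158-100671407, that of Gar1 chr3:129831397-129831646 and that of Snu13 chr15:82047599-82047848, all on the minus strand. Capitals mark CGGAAGT on either strand (ACTTCCG when read on the other), a sequence with the GGAA core that transcription factors of the ETS family bind. This motif was looked for after the windows had been read.
Shq1: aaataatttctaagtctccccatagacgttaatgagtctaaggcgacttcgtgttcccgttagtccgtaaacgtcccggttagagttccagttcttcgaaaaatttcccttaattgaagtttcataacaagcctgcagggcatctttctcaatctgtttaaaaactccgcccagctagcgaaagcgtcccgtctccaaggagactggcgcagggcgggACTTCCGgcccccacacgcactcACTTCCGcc
Gar1: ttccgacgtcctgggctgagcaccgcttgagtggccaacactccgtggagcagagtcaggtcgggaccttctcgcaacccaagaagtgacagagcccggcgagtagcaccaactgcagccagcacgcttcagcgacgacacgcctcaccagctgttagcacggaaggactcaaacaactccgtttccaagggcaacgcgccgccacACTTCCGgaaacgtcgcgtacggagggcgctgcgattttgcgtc
Snu13: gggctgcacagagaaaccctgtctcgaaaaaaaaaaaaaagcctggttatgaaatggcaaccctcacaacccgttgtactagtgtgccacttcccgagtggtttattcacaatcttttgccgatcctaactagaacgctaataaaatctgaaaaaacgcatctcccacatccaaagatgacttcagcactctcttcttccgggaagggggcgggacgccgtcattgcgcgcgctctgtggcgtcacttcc
The Shq1 window held 2 copies, both close to the start, and the Gar1 window 1 copy. The Nhp2 window also held 1, and the windows of Snu13, Dkc1, Nop10, Nop56 and Nop58 none. The Snu13 window ends in acttcc, and a copy running across its end would not have been counted. Only this exact sequence was counted, and the Snu13 window does hold the GGAA core, as in cttccggg. That core therefore does not tell the Snu13 window apart from those with the motif. The core was not looked for in the other windows without the motif. On the same search 4.92% of 32851 mouse promoter windows of this length held the motif on either strand. Because the motif was chosen from the windows shown, this share gives no test. The windows held 17 CpG dinucleotides for Shq1, 25 for Gar1 and 14 for Snu13, against a median of 6 over all windows. Of the other 5 windows, Nop56 held 25, Nhp2 13, Nop58 11, Dkc1 5 and Nop10 0. These matches describe the sequence and do not show that a factor binds there.

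Shq1 RNA was low in untreated cells and about 4 times as abundant at both times after dTAG-13. It lies on the minus strand of chr6:100568256-100671157. The authors' mean over 4 libraries was 139 in the 4 h table and 159 in the 8 h table. Its recovered numbers were 50 and 33 in untreated libraries, 249 and 348 after 4 h, and 550 and 280 after 8 h. In normalised counts it stood at 65.7 and 61.5 in untreated libraries, 281 and 270.5 after 4 h, and 304 and 220.0 after 8 h. Every treated library lay above both untreated ones, and the libraries of the 2 times overlapped. The log2 difference, taken on the normalised count plus 1, was 2.09 at 4 h (SE 0.51, 4.27-fold) and 2.01 at 8 h (SE 0.51, 4.02-fold), both against the same untreated pair. Between 8 h and 4 h it was -0.09 (SE 0.47).

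**Figure D1:**
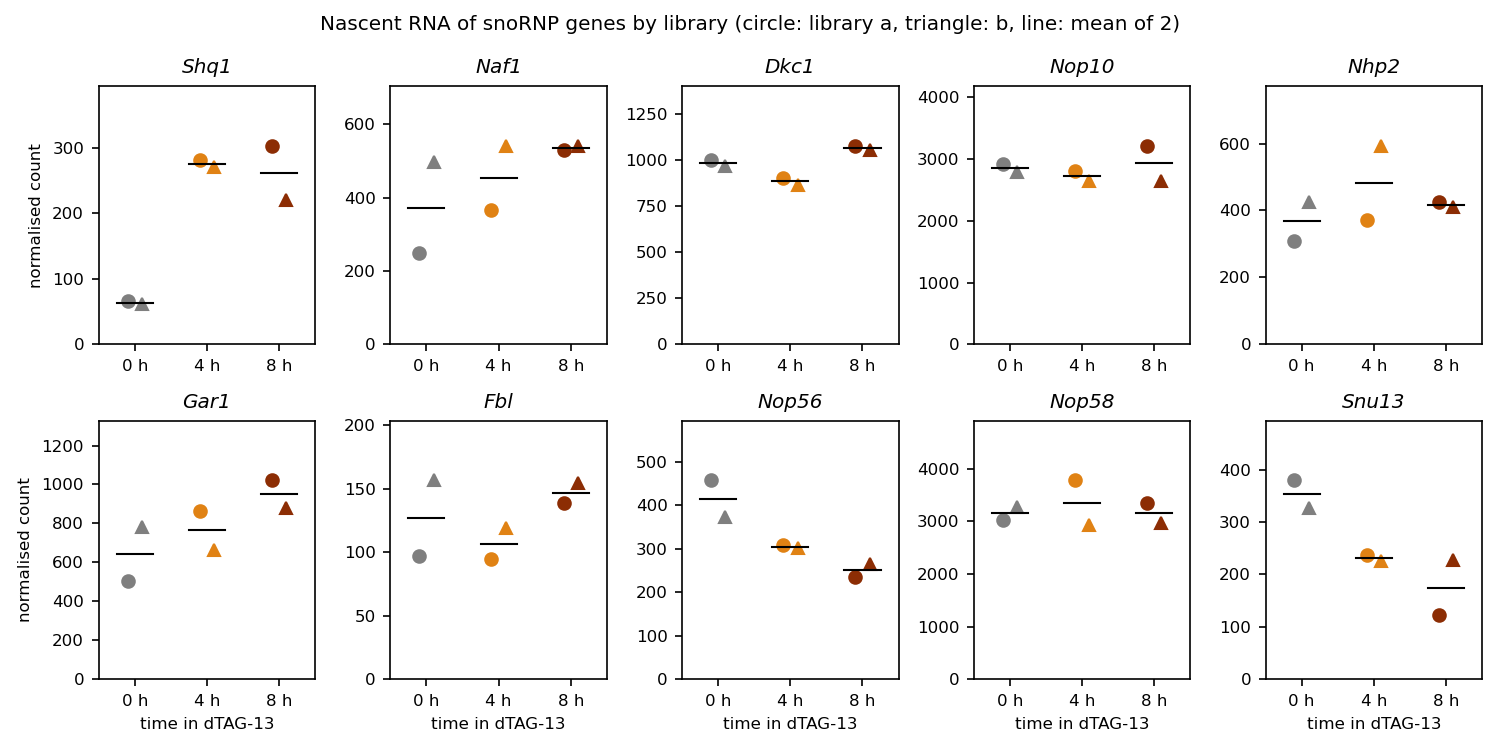
Normalised counts of the 10 genes in the 6 libraries, by time in dTAG-13 (0 h is untreated; circles are library a, triangles library b, lines the mean of the 2; each panel has its own axis from 0). Shq1 sits at 61.5 to 65.7 in untreated libraries and at 220.0 to 304 in treated ones, while in most other panels the groups lie close together or overlap.

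Naf1 (chr8:66860217-66890564, plus strand), the other assembly factor, was spread widely between libraries. It had 250 and 496 normalised counts in untreated libraries, 367 and 542 after 4 h, and 530 and 540 after 8 h. The untreated libraries thus differed by 0.99 on the log2 scale, more than the median gap of 0.26 among the 9901 genes whose mean reached 100. The log2 difference was 0.34 at 4 h (95% interval -0.57 to 1.24) and 0.61 at 8 h (-0.24 to 1.45). Neither passed the test, with adjusted p = 0.965 at 4 h and 0.891 at 8 h (limma, Benjamini-Hochberg over all genes). Both 8 h libraries lay above the untreated pair, as for 17.4% of all genes, and the 4 h libraries overlapped with it. Without untreated library a the 8 h difference was 0.11, and without untreated library b it was 1.10 (adjusted p = 0.958 and 0.954, limma).

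Dkc1 encodes dyskerin, the pseudouridine synthase of the H/ACA particle, and lies at chrX:75095854-75109777 on the plus strand. Its levels were 1001 and 971 normalised counts in untreated libraries, 907 and 868 after 4 h, and 1080 and 1057 after 8 h. The gap within a group was at most 0.06 on the log2 scale. The 4 h libraries lay below the untreated pair, as for 16.1% of all genes. Those of 8 h lay above it, as for 17.4%. The differences were small, at -0.15 at 4 h (95% interval -0.60 to 0.29) and 0.12 at 8 h (-0.28 to 0.51) on the log2 scale. At 8 h against 4 h the difference was 0.27 (-0.13 to 0.66, adjusted p = 0.963 by limma).

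Nop10 (chr2:112261926-112263269), Nhp2 (chr11:51619735-51623714) and Gar1 (chr3:129824912-129831396) encode the small core proteins that sit with dyskerin. Nop10 was even, at 2913 and 2784 normalised counts in untreated libraries, 2813 and 2638 after 4 h, and 3219 and 2640 after 8 h. Its log2 difference was -0.07 at 4 h (95% interval -0.35 to 0.22) and 0.04 at 8 h (-0.27 to 0.35), among the narrowest intervals of the 9 genes. Nhp2 ranged from 310 to 594 normalised counts with overlapping groups, and differed by 0.37 at 4 h (-0.42 to 1.15) and 0.20 at 8 h (-0.49 to 0.90). The 4 h value was 0.71 without library a of that time and 0.028 without library b.

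Gar1 had 503 and 783 normalised counts in untreated libraries, 865 and 664 after 4 h, and 1021 and 880 after 8 h. The 8 h libraries were above the untreated pair, as for 17.4% of all genes, and the 4 h libraries overlapped with that pair. The log2 difference was 0.27 at 4 h (SE 0.29) and 0.60 at 8 h (SE 0.26, 1.51-fold, 95% interval -0.01 to 1.20). At 8 h the unadjusted p was 0.0532 and the adjusted p 0.891 (limma). Without untreated library a the 8 h difference was 0.27, and without untreated library b it was 0.91.

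Of the C/D genes, Snu13 and Nop56 had lower normalised counts in all treated libraries. Snu13 (chr15:82040525-82047598, minus strand) encodes the protein that binds the kink-turn of C/D RNAs and of U4 RNA in the spliceosome. It stood at 380 and 326 normalised counts in untreated libraries, 237 and 226 after 4 h, and 122 and 228 after 8 h. The treated libraries lay below the untreated pair at each time, as for 16.1% of all genes at 4 h and 16.6% at 8 h. The log2 difference was -0.60 at 4 h (95% interval -1.39 to 0.19, adjusted p = 0.965 by limma) and -1.07 at 8 h (-2.07 to -0.08, 2.10-fold lower). At 8 h the unadjusted p was 0.0380 and the adjusted p 0.891 (limma), so the difference did not pass the test over all genes. The 8 h libraries were 0.90 apart on the log2 scale, and without library a of that group the difference was -0.63.

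Nop56 (chr2:130274430-130279313, plus strand), a scaffold protein of the C/D particle, had 457 and 373 normalised counts in untreated libraries, 309 and 301 after 4 h, and 236 and 265 after 8 h. Its treated libraries lay below the untreated pair at each time, as did those of 16.1% of all genes at 4 h and 16.6% at 8 h. The log2 difference was -0.44 at 4 h (95% interval -1.15 to 0.28) and -0.72 at 8 h (-1.46 to 0.02), with an unadjusted p of 0.0538 and an adjusted p of 0.891 at 8 h (limma).

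Nop58 (chr1:59684971-59719044), the partner of Nop56 in the particle, was the most abundant of the C/D genes in normalised counts, which are not corrected for length. It stood at 3024 and 3276 in untreated libraries, 3778 and 2923 after 4 h, and 3345 and 2965 after 8 h, with overlapping groups. The log2 difference was 0.08 at 4 h (95% interval -0.26 to 0.41) and 0.00 at 8 h (-0.27 to 0.28). Fbl (chr7:28169710-28179269), which encodes fibrillarin, the methyltransferase of the particle, was low, at 97.2 and 157 in untreated libraries, 94.8 and 119 after 4 h, and 139 and 155 after 8 h. Its interval was wide, from -1.52 to 1.09 at 4 h and from -0.96 to 1.45 at 8 h.

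**Figure D2:**
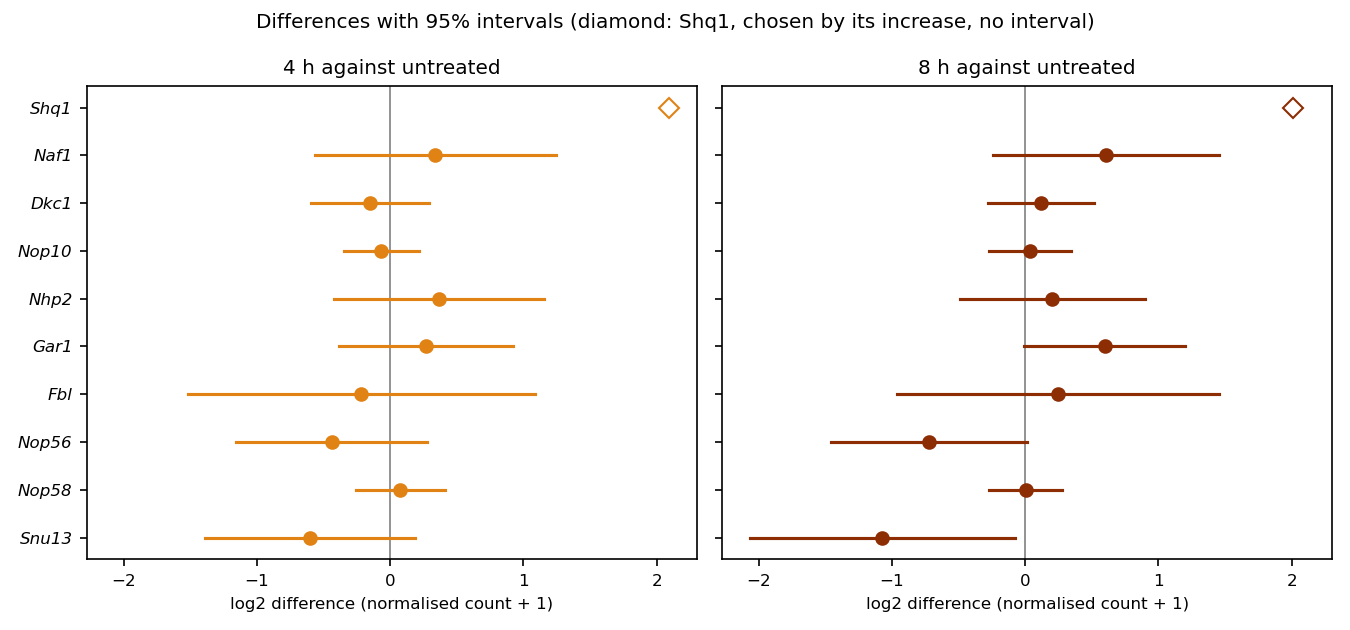
Log2 differences of the 10 genes at 4 h (left) and 8 h (right) against untreated cells; points are estimates, bars 95% intervals, and the open diamond is Shq1, given with no interval. Shq1 stands at 2.09 and 2.01, and of the other intervals only that of Snu13 at 8 h (-2.07 to -0.08) leaves out 0.

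Over the 9 genes other than Shq1, 4 had a positive and 5 a negative difference at 4 h (median -0.07, against 0.00 over all 14572 genes tested). At 8 h 7 were positive and 2 negative (median 0.12, against 0.01 over 15090 genes). None of the 9 passed an adjusted p of 0.05 at either time, nor did any gene of the whole table (0% at 4 h, 0% at 8 h, and 0% of 15169 genes between 8 h and 4 h). At an unadjusted p below 0.05, 526 genes (3.61%) stood out at 4 h, 683 (4.53%) at 8 h and 673 (4.44%) between the times (limma). Of the 9 genes only Snu13 was among them, at 8 h.

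Groups of 2 libraries often lie apart. At 4 h none of the 9 genes lay above and 3 below the untreated pair (Dkc1, Nop56 and Snu13), against 16.4% of all genes above and 16.1% below. At 8 h 3 lay above (Naf1, Dkc1 and Gar1) and 2 below (Nop56 and Snu13), against 17.4% and 16.6% of all genes. At 8 h the 4 H/ACA core genes all had positive differences (median 0.16, against 0.01 over all genes). The 4 C/D genes were split between 2 positive and 2 negative ones (median -0.36). The shared sign of the H/ACA genes was not firm. Nop10, at 0.04, turned to -0.11 without library a of 8 h, and Nhp2 to -0.027 without untreated library a. None of the 9 genes passed the test at either time.

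Leaving out the size factors turned the direction of several differences, those of Snu13 and Nop56 at 8 h among them, while scaling by library sums turned none of the 10 genes at 4 h or 8 h. Without size factors, the recovered numbers of the median gene were higher by 0.74 on the log2 scale at 4 h and by 1.25 at 8 h than in untreated cells. Per the methods, counts were scaled to ERCC spike-in RNA, synthetic transcripts used as an internal control. No ERCC row was among the genes used here, and whether the recovered numbers carry that scaling was not tested. The shift therefore cannot be told apart from a difference in library size. On that scale all 10 genes were above untreated cells at both times. At 8 h 6099 of 15457 genes (39.5%) then passed an adjusted p of 0.05 (limma), Naf1, Dkc1, Nop10, Nhp2, Gar1 and Nop58 among them, and at 4 h none did. Shq1 was higher by 2.83 at 4 h and 3.24 at 8 h, Snu13 by 0.14 and 0.17, and Nop56 by 0.30 and 0.52. Less the shift of the median gene, Shq1 was at 2.09 and 1.99, Nop56 at -0.44 and -0.73, and Snu13 at -0.60 and -1.08. Taking off that shift restores the first scaling by construction, so the likeness to the values above is no support for them. Every statement above on higher or lower levels is thus relative to the typical gene of the same libraries.

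**Figure D3:**
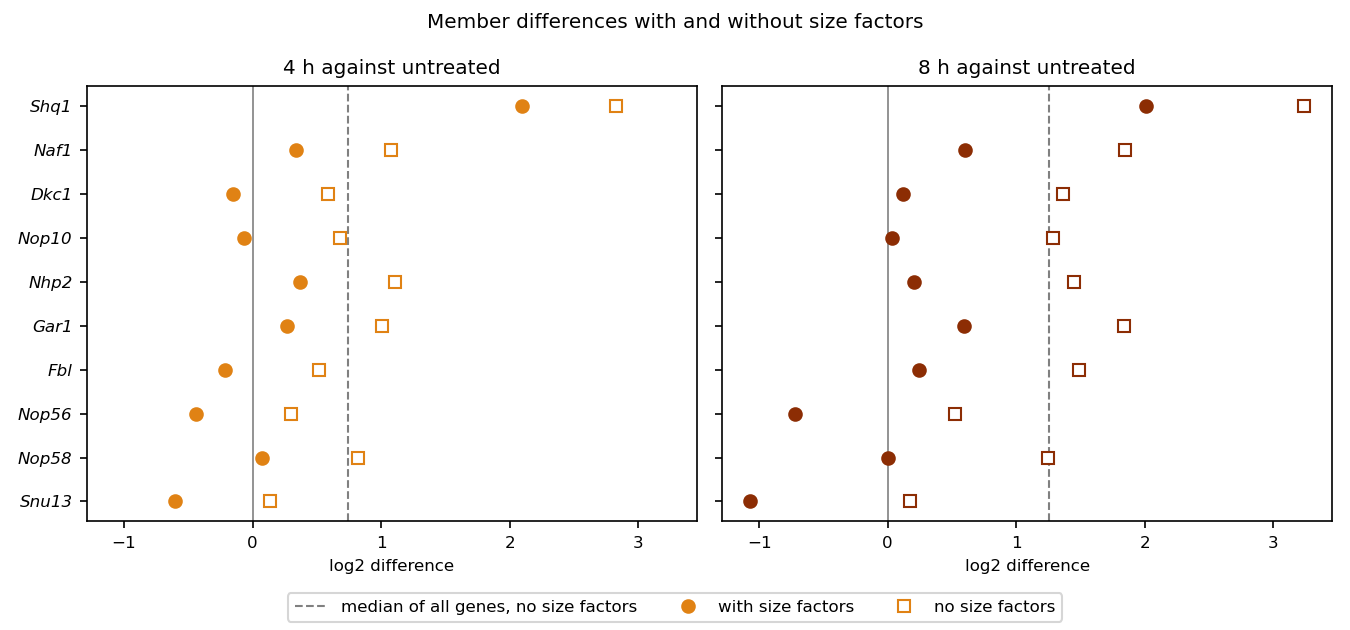
Log2 differences of the 10 genes at 4 h (left) and 8 h (right) against untreated cells, with size factors (filled) and without (open squares); the dashed line is the median of all genes without size factors. All 10 open squares lie above 0, and Snu13 and Nop56 change side between the 2 scalings while Shq1 stays to the right of the median gene in both.

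Within 500 kb of Shq1, 4 genes had over 50 normalised counts in every library. Shq1 was chosen by its increase, so setting its neighbours beside it is a description, with no test between them. Gxylt2, a xylosyltransferase gene 33577 bases away, had 1676 and 1878 normalised counts at 4 h and 1700 and 1876 at 8 h, against 1660 and 1648 in untreated libraries. Its log2 difference was 0.10 at 4 h and 0.11 at 8 h (SE 0.15 and 0.14). Ppp4r2, a regulatory subunit gene of protein phosphatase PP4 at 162465 bases, differed by 0.21 and 0.17 (SE 0.15 and 0.14). Pdzrn3, at 478452 bases, differed by 0.36 and 0.59 (SE 0.38 and 0.33), and Gm43942 by -0.24 and -0.11 (SE 0.60 each). Rybp, Gm44045 and Gm18422 had at most 77.9 normalised counts in any library, with libraries at 0 among them. Rybp, a subunit gene of Polycomb complexes, had 42.0 and 25.1 at 8 h, against 3.94 and 9.32 in untreated libraries, a log2 difference of 2.23 (SE 1.40) with an adjusted p of 0.891 (limma). Of the genes annotated inside Shq1, Gm44116 on the same strand had at most 26.4 normalised counts in any library, the pseudogene Gm6565 on the opposite strand at most 0.55, and the pseudogene Gm44108 on the same strand was listed at 0.

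The genes whose profile over the 6 libraries was most like that of Shq1 were Ccdc152, Gm6475, Clba1, Rab23 and Dffb. Likeness was the root-mean-square difference of centred log2 values, which was 0.27, 0.34, 0.38, 0.44 and 0.47 for these genes among 9900 genes whose mean reached 100. Dffb encodes the nuclease that cuts DNA in apoptosis, and Rab23 a small GTPase. Ccdc152 had 301 and 229 normalised counts at 4 h and 308 and 160 at 8 h, against 81.5 and 74.6 in untreated libraries. Of the 9 snoRNP genes Gar1 came nearest, at rank 569 (0.82), and Snu13 was farthest, at rank 9646 (1.43). With 6 libraries of which 2 are low, likeness mostly means a similar step between untreated and treated cells, and the 5 genes were picked for it, so no test applies.

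**Figure D4:**
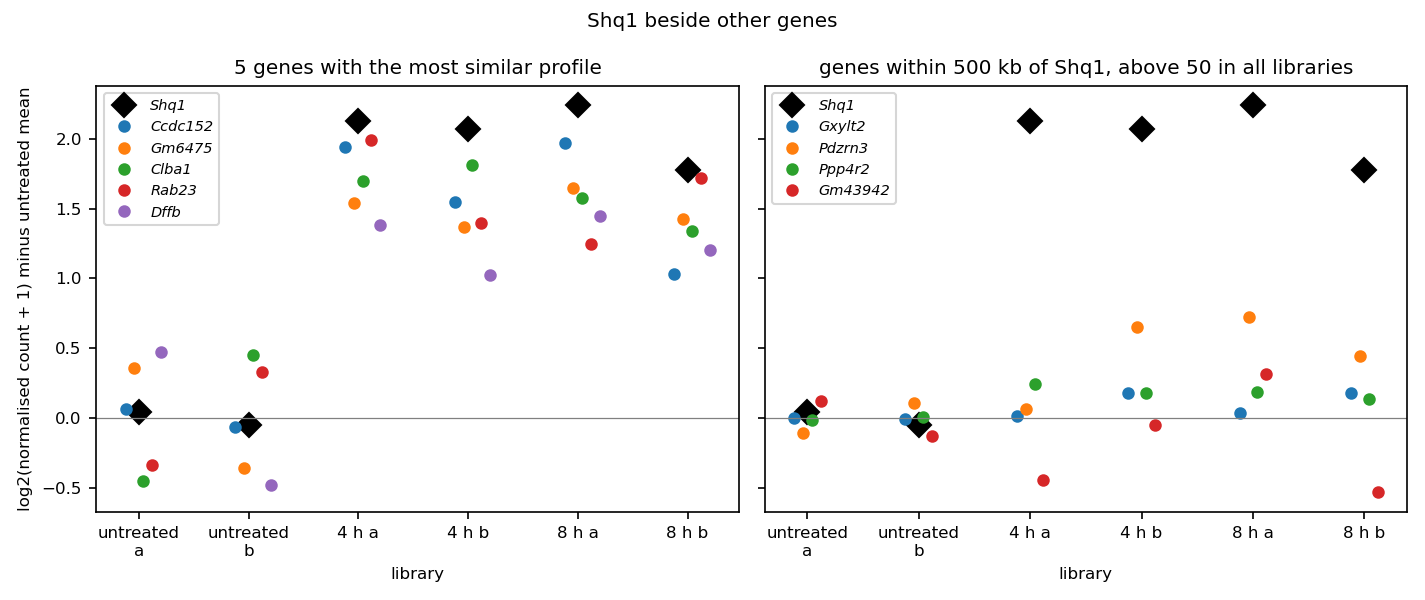
Log2 of the normalised count plus 1, minus the mean of the untreated libraries, in each library for Shq1 (black diamonds), the 5 genes with the most similar profile (left) and the genes within 500 kb of Shq1 with over 50 normalised counts in every library (right). Shq1 and the similar genes, chosen for their increase or profile, lie above 1 in the treated libraries. The neighbours shown stay below 1, and those under the cut of 50, such as Rybp, are not shown.

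Several of the 10 genes overlap others. On GENCODE M21, Nop56 holds 5 annotated snoRNA genes, Nop58 holds 4 and Dkc1 1, all on the same strand, and none had a mean above 0 in the tables. The end of Dkc1 overlaps Mpp1 by 45 bases, that of Nhp2 overlaps Rmnd5b by 44 and that of Nop56 overlaps Idh3b by 5, all on the opposite strand. The sources used here do not say whether reads were counted by strand, so reads in these stretches cannot be told apart. Mpp1 differed by -0.12 at 4 h and 0.09 at 8 h, Rmnd5b by -0.33 and -0.02, and Idh3b by -0.01 and -0.06 on the log2 scale.

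The wider pathway was read from 4 lists of 40 genes, of which 34 could be tested at 4 h and 35 at 8 h. They hold the assembly machinery of snoRNPs (the R2TP chaperone with Ruvbl1 and Ruvbl2, and its partners), proteins of the U3 processome, genes of telomerase, Cajal bodies and small RNA maturation, and pseudouridine synthases that work without a guide RNA. None passed the test at 4 h, at 8 h or between the times (limma), also at an unadjusted p below 0.05. Over all genes 3.61%, 4.53% and 4.44% had such an unadjusted p (limma), so none among so few genes is near those shares. The median log2 difference was 0.06 at 4 h and -0.01 at 8 h for the assembly machinery, and -0.10 and -0.04 for the U3 processome. It was 0.10 and -0.03 for the telomerase and Cajal body list, and -0.20 and -0.26 for the guide-free pseudouridine synthases. The medians over all genes were 0.00 and 0.01. Hsp90ab1 had no single solution, and Taf9 and Pus3 were listed at 0.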

How the data were processed

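Nascent RNA captured by Click-iT chemistry was sequenced from iMEF cells in 3 groups of 2. Per the methods, the authors trimmed reads with Trim Galore, mapped them to mm10 with STAR, assigned them to GENCODE M25 genes with featureCounts, normalised to ERCC spike-in RNA and tested with DESeq2. The authors' processing notes also list BWA, SAMtools, MACS2 and deepTools, with no version. A stranded total RNA kit stands in the labels, whereas the methods give a 3′ mRNA kit. The deposited signal column used here is the authors' mean, over the 4 libraries that a table compares, of scaled counts. The authors' fold changes, standard errors, p-values and q-values, and their lists of called genes, hold the study's own comparisons and were not used. No ERCC row was present.

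Whole numbers per library were recovered from both means by lattice reduction (Python 3.11.15, mpmath), tested on simulated data. All 23531 genes with a mean of at most 10000 had a single solution, and the 133 with more than 1 had means of at least 12210 and were left out. The size factors in the means differed from medians of ratios of the recovered numbers by at most 0.08%. The untreated pair is the pair shared by both tables. Of the whole numbers from 1 to 200, between 128 and 200 occurred per library, so no count model was used. Molecular identifiers are not mentioned, so no counting interval is given.

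Log2(recovered number / size factor + 1) was fitted with limma 3.58.1 (R 4.3.3, lmFit, eBayes with trend) for genes with a mean of at least 10, on 4 libraries for each time against untreated cells and on 6 libraries, with medians of ratios, for 8 h against 4 h. Values per library are from the 6-library scaling. P-values were Benjamini-Hochberg adjusted over all genes, with a threshold of 0.05. Intervals are 95%. Both comparisons share the untreated libraries.

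The 10 genes, the lists and the markers were chosen with earlier results of these data known. Named were all 10 genes, called genes of the other lists, genes overlapping the 10, genes within 500 kb of Shq1 with a mean of at least 10, and the 5 genes with a mean of at least 100 most like Shq1. Coordinates are from GENCODE M21 (GRCm38), promoters from RefSeq (GRCm38.p6). Alternatives were pseudocounts of 0.1 and 10, no filter, scaling by library sums, a fit of all 6 libraries, voom weights, each library left out, and, chosen after seeing the data, no size factors.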

Additional observations from a re-analysis of the deposited data

How the results depend on the processing

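No paired analysis was possible because the recovered libraries carry no replicate numbers. At 4 h and at 8 h, 0 genes passed with pseudocounts of 0.1 and 10, no filter, library sums, all 6 libraries, voom weights or any library left out (lowest and highest count 0). For 8 h against 4 h, where a pseudocount of 10 and library sums were not run, 0 genes passed with a pseudocount of 0.1, no filter, voom weights or any library left out. In these fits 487 to 864 genes had an unadjusted p below 0.05 at 4 h, 589 to 970 at 8 h and 597 to 982 for 8 h against 4 h. Without size factors, a setting chosen after seeing the data, 0 genes passed at 4 h, 6099 at 8 h and 1 between the times, and the median gene moved by 0.74, 1.25 and 0.51.

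Of 270 values of the 10 genes under the settings other than no size factors, 255 kept their direction and 15 turned sign. Of the 270, 27 were values of Shq1, which was chosen by its increase in these same libraries and was not tested. That its direction was kept at 4 h and 8 h was therefore fixed by the choice and is no support. No gene passed in any of these fits, so keeping the same side of the threshold carries no information. All 15 changes of sign came from leaving out 1 library. The cause was not tested. As a description only, the values of Shq1 ran from 1.92 to 2.15 at 4 h, from 1.77 to 2.24 at 8 h and from -0.32 to 0.14 for 8 h against 4 h.

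With 1 library left out, the log2 difference at 4 h ran from -0.15 to 0.83 for Naf1, from 0.028 to 0.71 for Nhp2, from -0.048 to 0.59 for Gar1, from -0.56 to 0.13 for Fbl and from -0.11 to 0.26 for Nop58. At 8 h it ran from 0.11 to 1.10 for Naf1, from 0.27 to 0.91 for Gar1, from -1.52 to -0.63 for Snu13, from -0.027 to 0.43 for Nhp2, from -0.10 to 0.59 for Fbl, from -0.11 to 0.18 for Nop10 and from -0.086 to 0.088 for Nop58. For 8 h against 4 h it ran from -0.018 to 0.54 for Naf1, from -0.51 to 0.17 for Nhp2, from -0.045 to 0.24 for Nop10 and from -0.26 to 0.11 for Nop58. The sign turned without untreated library a for Naf1 and Gar1 at 4 h and for Nhp2, Fbl and Nop58 at 8 h (-0.10 for Fbl, -0.06 for Nop58), and without untreated library b for Fbl at 4 h. The others turned without a 4 h or 8 h library.

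Without size factors, values above 0 stood in place of values below 0 at 4 h for Dkc1 (0.59), Nop10 (0.68), Fbl (0.52), Nop56 (0.30) and Snu13 (0.14), and at 8 h for Nop56 (0.52) and Snu13 (0.17). The same held for 8 h against 4 h for Shq1 (0.41), Nhp2 (0.34), Nop56 (0.22), Nop58 (0.43) and Snu13 (0.034). Adding the shift of the median gene accounts for these turns by construction.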
